A study of Homo sapiens with 6 samples.

Results

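The TRAIL receptor gene cluster is a stretch of human chromosome 8 that holds 4 neighbouring genes of the tumour necrosis factor receptor superfamily. They are TNFRSF10B, TNFRSF10C, TNFRSF10D and TNFRSF10A, in that order along the chromosome. Chromatin occupancy of the RNA methylation factor METTL14 was read there from immunoprecipitation followed by sequencing (ChIP-seq). The members were all candidate islands that touched positions 22870000 to 23090000 of the hg19 build, an island being a run of 200 bp windows called together by SICER. This gave 8 of 67802 candidate islands in the DRB table and 7 of 38696 in the untreated table. The region was selected on the IP and input reads of these same tables, so every fold below is a description and carries no test.

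All libraries came from HepG2, a human hepatocellular carcinoma line, stably carrying METTL14 from a lentiviral vector with an HA tag at its N-terminus and EGFP at its C-terminus. After puromycin selection, cells with high GFP were sorted, so the protein measured is an overexpressed, tagged METTL14 in a selected population, and the antibody recognised the HA tag. No IP from cells without the tag was used here. For the DRB condition, cells had been exposed for 3 h to 100 µM DRB, a nucleoside analog that blocks transcription elongation, and 1 immunoprecipitated (IP) library and 1 input library were made. The untreated condition had 2 IP and 2 input libraries, which the deposited table combined, so no value has an error between replicates. The fold of an island is the ratio of its IP to its input reads, multiplied by the constant that the authors used for scaling (0.861 in the DRB table and 1.07 in the untreated one). Each value in parentheses after a fold is the exact 95% interval, which holds the error of counting reads and nothing else.

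TRAIL (TNFSF10) is a ligand that triggers apoptosis through receptors on the cell surface. TNFRSF10A (DR4) and TNFRSF10B (DR5) carry a cytoplasmic death domain, which recruits the adaptor FADD and initiator caspases. TNFRSF10C and TNFRSF10D are decoy receptors that bind the ligand without passing on the full death signal: TNFRSF10C is held in the membrane by a lipid anchor and has no death domain, and TNFRSF10D has a truncated one. TNFRSF10B is also a known transcriptional target of p53. METTL14 is the partner of METTL3 in the complex that places N6-methyladenosine on RNA during transcription. As further background, TNFRSF10B, TNFRSF10D and TNFRSF10A are transcribed towards lower coordinates, so that their upper ends are their 5′ ends, and TNFRSF10C runs the other way.

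The number of reads in candidate islands differed widely between the conditions. Outside the mitochondrial genome, the DRB candidate islands held 1977419 IP and 1330018 input reads, and the untreated ones held 14495388 and 14661480. With the mitochondrial genome included, the DRB islands held 2411436 IP and 2726149 input reads, and the untreated ones 15339872 and 16034656. With DRB, that genome thus held a much larger part of the input than of the IP reads. Its bearing on the scaling was not tested. Over the receptor region the DRB islands held 238 IP and 147 input reads, and the untreated islands held 2536 and 2268. Per kb of island this was 10.7 IP and 6.62 input reads with DRB, against 54.2 and 48.5 in untreated cells. An island needed a minimum of reads to be listed, the lowest IP count in the whole table being 11 with DRB and 43 in untreated cells, so a stretch with no island is not a stretch with no reads.

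The islands lay over 2 of the 4 receptor genes. TNFRSF10B had 5 DRB islands and 3 untreated islands, and TNFRSF10D had 3 DRB islands and 1 untreated island. TNFRSF10C and TNFRSF10A had no candidate island in either condition. All 8 DRB islands touched a receptor gene, and 4 of the 7 untreated islands did, the other 3 lying between receptor genes. By at least 1 bp, 5 of the 8 DRB islands and 3 of the 7 untreated islands overlapped an island of the other condition. Over all candidates this share was 52.1% with DRB and 61.1% in untreated cells, and on chromosome 8 it was 32.7% and 51.3%.

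**Figure D1:**
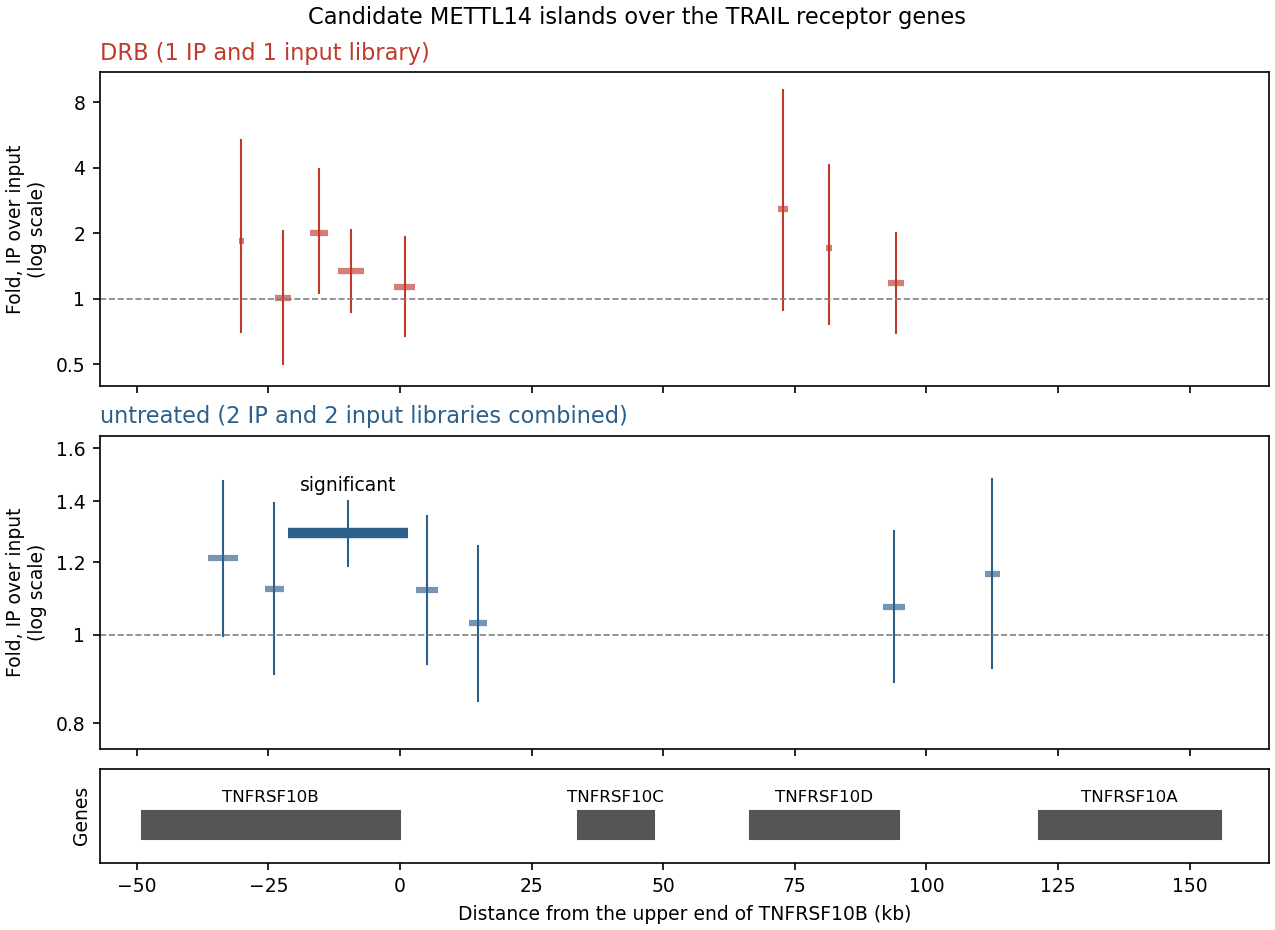
Candidate islands over the 4 receptor genes, with DRB above and untreated cells below. The x axis is the distance in kb from the upper end of TNFRSF10B, each thick bar spans an island at its fold of IP over input (log scale, with a different range in each panel), thin lines are exact 95% intervals of counting error, and grey boxes are the genes. The untreated island over the upper part of TNFRSF10B, with a fold of 1.29, is the only significant one, and no island lies over TNFRSF10C or TNFRSF10A.

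Among the death receptors, TNFRSF10B held the one island of the region on the authors' significant lists. The gene spans positions 22877646 to 22926692, a length of 49.0 kb. The significant island, in untreated cells, ran from 22905401 to 22928200, a width of 22.8 kb, and started 21.3 kb inside the gene, reaching 1508 bp past its upper end. It held 1309 IP reads and 1088 input reads, a fold of 1.29 (1.19 to 1.40), and the authors' deposited table gives a false discovery rate (FDR) of 8.92e-17. The island thus covered the 5′ end of TNFRSF10B and the adjoining part of the gene body. On the DRB list were 0 of the 8 islands of the region, where 4.76% of all DRB candidates and 7.49% of the 1788 on chromosome 8 were significant. On the untreated list was 1 of the 7, where 5.10% of all untreated candidates and 8.89% of the 956 on chromosome 8 were significant. These counts of 0 and 1 were the same at a 10 times lower FDR, which 1.47% of all DRB and 3.15% of all untreated candidates passed, though a lower FDR cannot raise a count of 0. They were also the same by an exact binomial test with Benjamini-Hochberg adjustment over each table, which includes the counting error of the input. At an adjusted threshold of 1e-04 that test called 0.00442% of the DRB and 0.806% of the untreated candidates, and at 0.05 it called 0.00737% and 8.57%. The region was chosen with these calls known, so nothing is read from them.

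The other untreated islands at TNFRSF10B had folds closer to 1. The island at 22890201 to 22896000, wholly within the gene, had 227 IP and 201 input reads, a fold of 1.21 (0.998 to 1.47). The one at 22901001 to 22904600 had 179 IP and 171 input reads, a fold of 1.12 (0.906 to 1.39). Above the gene, 3.11 kb from its upper end, the island at 22929801 to 22934000 had 237 IP and 227 input reads and a fold of 1.12 (0.930 to 1.35). The next, at 22939801 to 22943200, had 210 IP and 219 input reads and a fold of 1.03 (0.847 to 1.25). The fold was thus highest in the wide significant island and was lower in the islands on either side, but their intervals overlapped its own. That island had 21.3 kb inside the gene, and its fold is summed over its whole width. It therefore does not place the signal at the 5′ end. In the GRCh38.p14 gene table the neighbours of TNFRSF10B on this side are TNFRSF10B-AS1 and LOC254896. Whether the 2 islands above TNFRSF10B lie on them was not analysed here, because the table is of another build.

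Within the authors' untreated significant list, the island at TNFRSF10B was set apart by its width and its number of reads more than by its fold. Among the 1973 significant untreated islands it ranked 59th by width, 106th by IP reads and 1595th by fold, and the median significant island was 4.0 kb wide with 247 IP reads and a fold of 1.44. On chromosome 8, it was the second widest of 85 significant islands and the 75th by fold. The other significant island of at least 20 kb on that chromosome, at 17759001 to 17783000, had 1686 IP and 1613 input reads and a fold of 1.12. In the genome 76 significant islands reached 20 kb, and 6 of them had a higher fold than the one at TNFRSF10B. Of all untreated candidates outside the mitochondrial genome, significant or not, 1246 reached 20 kb, and again 6 had a higher fold than that island. Outside the mitochondrial genome, 3610 untreated candidates had a fold at least as high as its own, and 2015 of these were not significant, with a median of 159 IP reads.

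With DRB, 4 islands lay over this stretch and covered 50.0% of it. The island at 22909601 to 22913000 had 35 IP and 15 input reads, a fold of 2.01 (1.07 to 3.96). It was the only DRB island of the region whose interval excluded 1, and its FDR in the authors' deposited table was 6.25e-04, above the threshold of 1e-04. The DRB islands of chromosome 8 with up to 15 input reads had a median fold of 1.94. The fold of 2.01 was thus close to that median. How many of those islands had an interval that excludes 1 was not analysed here. The island at 22915001 to 22919800 had 59 IP and 38 input reads, a fold of 1.34 (0.874 to 2.07). Over the 5′ end itself, the island at 22925601 to 22929600 had 37 IP and 28 input reads, a fold of 1.14 (0.677 to 1.93). The island at 22903001 to 22906000, which crosses the lower edge of the untreated one, had 20 IP and 17 input reads and a fold of 1.01 (0.504 to 2.06). The wide untreated domain was thus met by separate, narrower DRB islands of 3.0 to 4.8 kb, whose intervals all overlapped one another. Over all candidates the median width was 2.0 kb with DRB and 4.8 kb in untreated cells. Narrower DRB islands are therefore not particular to this stretch.

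Summed over these 4 islands, the DRB fold was 1.33 (1.02 to 1.73) from 151 IP and 98 input reads, against 1.29 in the untreated island. The ratio of the DRB to the untreated fold was 1.03, with an exact interval of 0.781 to 1.36. Whether the ratio was set apart from 1 depended on the scaling of the input. With the median fold of all candidate islands at 1 in each table, it was 0.735 (0.559 to 0.971), and with that of the chromosome 8 islands at 1 it was 0.663 (0.504 to 0.875). With the median of the islands of at least 10 kb at 1, it was 1.04 (0.794 to 1.38). The reads were counted over 15.2 kb with DRB and 22.8 kb in untreated cells, so they do not come from the same sequence. Input density was 6.45 reads per kb with DRB and 47.7 in untreated cells. The fifth DRB island of the gene lay deeper in its body, at 22896201 to 22897000, with 15 IP and 7 input reads and a fold of 1.84 (0.708 to 5.35), and overlapped no untreated island.

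For the whole of TNFRSF10B the DRB islands covered 26.7% of the gene and the untreated islands 62.6%. Coverage of chromosome 8 was also lower with DRB, at 2.23% against 3.11%. The summed fold of the gene was 1.36 (1.06 to 1.75) with DRB and 1.26 (1.17 to 1.35) in untreated cells, a ratio of 1.08 (0.832 to 1.41). The direction of this ratio turned with the scaling too. The median fold of all candidate islands was 1.51 with DRB and 1.08 in untreated cells. When that median was set to 1 in each table, the fold of the gene was 0.903 (0.703 to 1.16) with DRB and 1.17 (1.09 to 1.25) in untreated cells, a ratio of 0.773 (0.595 to 1.01). When the median of the chromosome 8 islands was set to 1, the ratio was 0.697 (0.537 to 0.907), with an interval below 1. Centring on islands of at least 10 kb, whose median folds were 1.01 with DRB and 1.03 in untreated cells, gave 1.10 (0.846 to 1.43). No direction of a DRB effect at TNFRSF10B can be given from these tables.

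**Figure D2:**
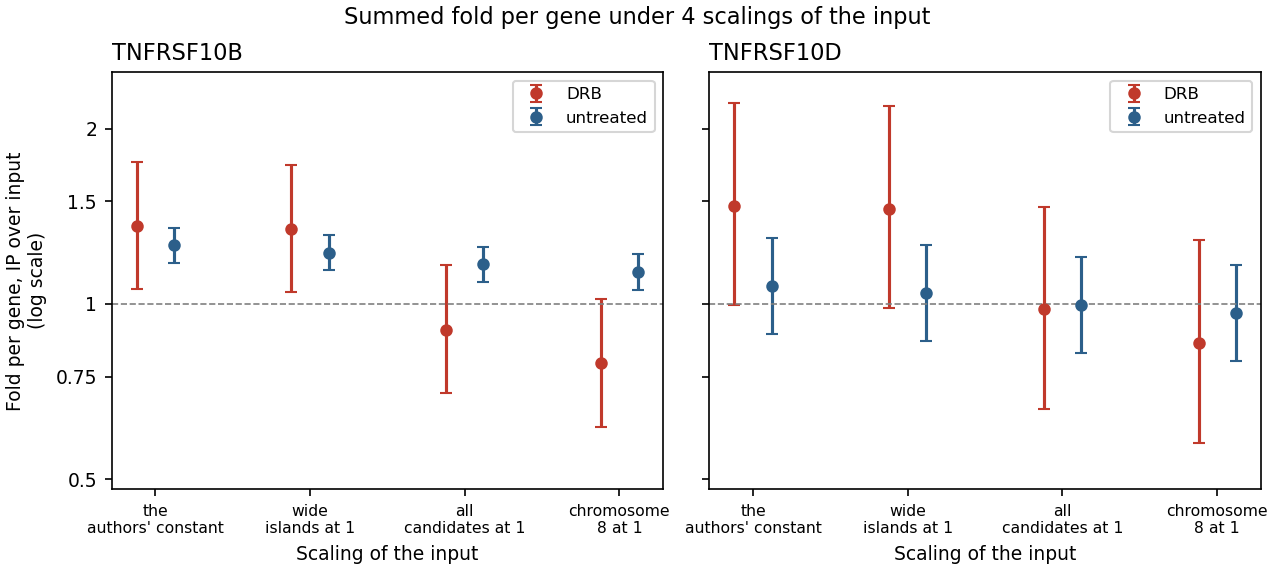
Summed fold of IP over input (y axis, log scale) over all islands of TNFRSF10B and of TNFRSF10D, in DRB and untreated cells, under 4 scalings of the input (x axis). Points are folds and bars exact 95% intervals of counting error. For TNFRSF10B the DRB fold is 1.36 against 1.26 in untreated cells with the authors' constant, and 0.903 against 1.17 with the median of all candidates at 1.

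Among the decoy receptors, TNFRSF10D had islands in both conditions, none of them significant. The gene spans positions 22993101 to 23021543, a length of 28.4 kb. The DRB island at 23019401 to 23022400 lay over its upper, 5′ end and reached 857 bp past it, with 37 IP and 27 input reads and a fold of 1.18 (0.699 to 2.01). The untreated island at 23018401 to 23022600 contained that one whole and reached 1057 bp past the gene, with 223 IP and 223 input reads and a fold of 1.07 (0.887 to 1.30). The ratio of these folds was 1.10 (0.627 to 1.95). Both islands thus covered the 5′ end of TNFRSF10D, as those named above did at TNFRSF10B, but neither interval excluded 1.

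The other DRB islands of TNFRSF10D lay in the gene body, over no untreated island. The one at 22998401 to 23000400 had 15 IP and 5 input reads and a fold of 2.58 (0.892 to 9.08), the highest of the region. The one at 23007601 to 23008800 had 20 IP and 10 input reads and a fold of 1.72 (0.769 to 4.12). With all 3 summed, the DRB fold was 1.48 (0.995 to 2.21), against 1.07 in untreated cells, a ratio of 1.38 (0.883 to 2.16). This ratio was 0.984 (0.632 to 1.54) with the median of all candidates at 1 and 0.887 (0.570 to 1.39) with that of the chromosome 8 islands at 1, so its direction turned with the scaling. Without its widest island, over the 5′ end, the DRB fold of the gene was 2.01 (1.07 to 3.96), from 35 IP and 15 input reads. The islands left had 5 and 10 input reads, and DRB islands of chromosome 8 with up to 15 had a median fold of 1.94. In untreated cells the summed folds of TNFRSF10B (1.17 to 1.35) and TNFRSF10D (0.887 to 1.30) had overlapping intervals, and with DRB they overlapped too.

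TNFRSF10C, the other decoy receptor, spans positions 22960434 to 22974950. It sat within a gap between islands of 68.8 kb with DRB and 75.2 kb in untreated cells. Gaps at least that wide made up 27.4% of the 1787 gaps on chromosome 8 with DRB and 28.8% of the 955 in untreated cells. TNFRSF10A, the other death receptor, spans positions 23047965 to 23082639 and sat within a gap of 80.6 kb with DRB and 61.2 kb in untreated cells, widths reached by 24.1% and 33.1% of the gaps on the chromosome. The nearest untreated island, at 23037801 to 23040600 between TNFRSF10D and TNFRSF10A, ended 7.36 kb below the gene and had 151 IP and 139 input reads, a fold of 1.17 (0.920 to 1.48). With DRB the nearest island started 20.4 kb above the gene. Of the death receptor genes, TNFRSF10B thus held the only significant island and TNFRSF10A held no candidate. How reads that map to more than 1 place were treated is not given in the sources used here, and its part in where islands could be called was not tested.

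Among the DRB islands of the receptors, those with fewer input reads had the higher folds. The 4 DRB islands with 5 to 15 input reads had folds of 1.72 to 2.58, and the 4 with 17 to 38 input reads had folds of 1.01 to 1.34. The same split held over all nuclear DRB candidates, whose median fold was 1.83 with up to 15 input reads and 1.15 above that. The medians of the receptor islands, 1.93 and 1.16, were close to those of chromosome 8, 1.94 and 1.17. In untreated cells all 7 islands had 139 or more input reads, and their folds ran from 1.03 to 1.29 around a median of 1.12, against 1.11 for chromosome 8. The share of significant islands differed between these bands too, at 7.23% of all DRB candidates with up to 15 input reads and 0.754% of those above that, and on chromosome 8 at 9.41% and 0.983%. Input reads are the denominator of the fold, so a split on them is not independent of it.

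**Figure D3:**
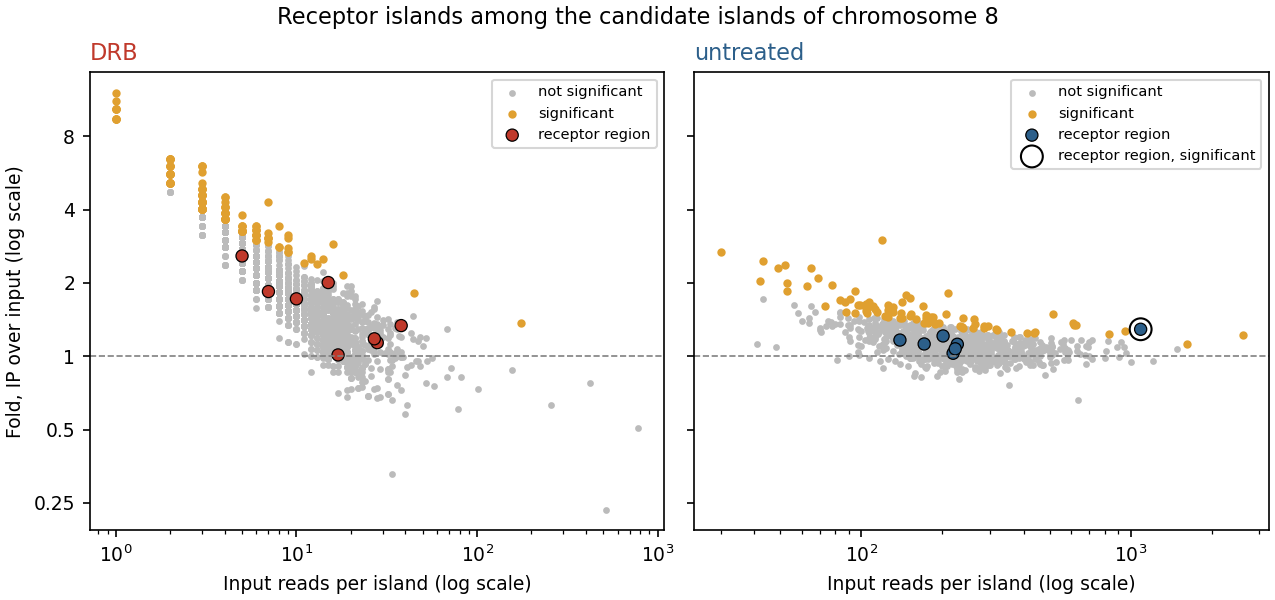
Fold of IP over input (y axis, log scale) against input reads per island (x axis, log scale) for the candidate islands of chromosome 8, with DRB on the left and untreated cells on the right. Grey and orange points are islands that were not and were significant, and large points are the receptor islands. The DRB receptor islands have 5 to 38 input reads and lie among the islands that were not significant, and the circled untreated island at TNFRSF10B has 1088 input reads at a fold of 1.29.

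Candidate islands were denser in the region than along chromosome 8 as a whole, in both conditions. They covered 10.1% of its 220 kb with DRB and 21.3% in untreated cells, against 2.23% and 3.11% of the chromosome. When the chromosome was divided into 665 consecutive windows of the same length, 9.17% held at least 8 DRB islands and 4.36% held at least 7 untreated islands. The untreated input density of the receptor islands was 0.662 to 1.23 times the median of all candidates, and the DRB density 0.357 to 1.29 times, so none lay far above it. The region was chosen for its islands, and these densities are given as a description. Just outside its bounds, the first DRB islands had folds of 2.11 at 22857001 to 22859000 and 0.906 at 23103001 to 23104400. The first untreated ones had 1.18 at 22851801 to 22853600 and 0.932 at 23101801 to 23105200.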

How the data were processed

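Anti-HA ChIP-seq of HA-METTL14 in HepG2 gave 6 libraries. Single-end reads of 50 nt were made after sonication, per the labels' protocols. FastQC 0.11.5, Bowtie 1.1.2, SICER and the build hg19 are named in the submitters' processing notes; the sources used here do not give SICER's settings or how the untreated replicates were combined. The deposited tables hold, per candidate island, counts of IP reads and of input reads, not normalized, with a p-value, a fold (a ratio) and an FDR from the authors; the files have no headers, and the columns were identified from the values. The authors' fold equalled IP over input reads times 1 constant, and their significant lists were the islands with an FDR under 1e-04. Reads summed over candidate islands are given with the results, and the sequencing depth of each library was not analysed here.

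Gene positions are those of the rule that chose the region, and islands were assigned to a gene by an overlap of at least 1 bp and their reads summed. The named genes were the 4 receptors, and every island of the region is reported. Positions are 1-based. Fold intervals are Clopper-Pearson intervals of the IP share, and intervals of a ratio of folds are exact conditional ones; both were tested on simulated data. Reads are not independent molecules, so they cover counting error only. The members, the lists and the region were chosen with earlier results of these data known. Gene strand was taken from general knowledge of the genes. Other genes of the TRAIL pathway were not analysed here, since only GRCh38.p14 positions were at hand. Alternatives were other overlaps, gene bounds, scalings, depth limits and call rules. The scaling on islands of at least 10 kb was added after the data were seen. Python 3.11.15, SciPy 1.17.1, pandas 2.3.3, numpy 2.4.6 and matplotlib 3.10.9 were used.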

Additional observations from a re-analysis of the deposited data

How the results depend on the processing

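The untreated significant island stayed the only one of the region at a 10 times lower FDR and with the region extended by 50 kb. It also did so by an exact binomial test adjusted over all candidates, at 1e-04 and at 0.05. The DRB count stayed 0 under these rules, but a lower FDR cannot raise a count of 0. The binomial test called only 0.00442% and 0.00737% of all DRB candidates, so its 0 says little. These calls were known when the region was chosen. The folds moved with the scaling, and the cause was not tested. With the median fold of all candidates at 1, TNFRSF10B had 0.903 (0.703 to 1.16) with DRB and 1.17 in untreated cells, a ratio of 0.773, and TNFRSF10D had 0.980 with DRB and a ratio of 0.984. With the median of the chromosome 8 islands at 1, TNFRSF10B had 0.790 (0.615 to 1.02) with DRB and 1.13 in untreated cells, a ratio of 0.697 (0.537 to 0.907), which alone among the ratios per gene had an interval clear of 1, and TNFRSF10D had 0.857 with DRB and a ratio of 0.887. Without its significant island, the untreated fold of TNFRSF10B was 1.17. Other settings left the folds and ratios within their reported intervals, but without its widest DRB island TNFRSF10D had 2.01 (1.07 to 3.96), an interval that excludes 1 where the reported one (0.995 to 2.21) does not. That 2.01 was close to the median fold of 1.94 of the DRB islands of chromosome 8 with up to 15 input reads. The untreated TNFRSF10D value could not be had without its only island. No paired analysis was possible because the replicates are not separate in the tables, and for the same reason no replicate could be left out. At the TNFRSF10B domain, with 98 DRB input reads, the ratio was 1.03 (0.781 to 1.36) with the authors' constant and 0.663 (0.504 to 0.875) with the chromosome 8 median at 1, so at the same depth the scaling decides whether 1 is excluded. Islands differ in extent between the conditions.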
